A study of Mus musculus with 2 samples.

Results

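Promyelocyte-like cells are described here in mouse cultures of myeloid-derived suppressor cells (MDSCs), immature myeloid cells that restrain T cell responses. They were chosen by measured values: cells with at least 200 detected genes, under 10% mitochondrial UMIs (unique molecular identifiers, counted molecules) and at least 2000 UMIs, in which Mpo, Elane, Prtn3 and Ctsg together held at least 10 UMIs and at least 0.5% of the cell's gene UMIs. The rule found 92 cells among 3773 deposited barcodes, 70 in the DMSO library and 22 in the Selinexor library. The vehicle DMSO was given to 1 culture, and Selinexor at 50 nM to the second; Selinexor is an inhibitor of the nuclear export receptor exportin 1, which is encoded by Xpo1. Growth lasted 4 days with the cytokines IL-6 and GM-CSF, each at 40 ng/mL, and live CD11b+ cells were sorted from both cultures. For the cultured cells, no source used here states strain, age or tissue of origin. Each group is 1 library, so there is no replicate spread between cultures, no test between them was possible, and the intervals below are 95% intervals for counting error only.

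The promyelocyte is the stage of granulocyte development at which the primary (azurophil) granules are filled. Mpo encodes myeloperoxidase, and Elane, Prtn3 and Ctsg encode the serine proteases neutrophil elastase, proteinase 3 and cathepsin G. Transcription of these genes ends as the cell becomes a myelocyte, which makes the proteins of the secondary (specific) granules, such as lactoferrin (Ltf) and cathelicidin (Camp). The promyelocyte still divides, and the granule genes are controlled by transcription factors of the C/EBP, RUNX and MYB families together with PU.1 and GFI1.

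In the DMSO library 70 of 1429 cells with at least 2000 UMIs met the rule, a share of 4.90% (exact Clopper-Pearson interval 3.84 to 6.15). In the Selinexor library 22 of 1184 did, a share of 1.86% (1.17 to 2.80). The DMSO share was 2.64 times the Selinexor share (1.64 to 4.23, log-normal interval), and the ratio covers the sampling of cells from 1 culture each, not the spread between cultures. The ratio was 4.85 with a threshold of 1% (41 and 7 cells), above that interval, and 3.83 without Prtn3 in the rule. The libraries held 314 and 783 further cells under 2000 UMIs that passed the other filters, and 0 of them reached 0.5% for the 4 genes. Over all cells that passed the filters whatever their depth, the shares were 4.02% and 1.12%. A fall in the number of promyelocyte-like cells, a larger number of other cells and a lower granule transcript level per cell cannot be told apart from such shares. The CD11b sort can also set them, since Itgam, the gene for CD11b, was low in these cells, at 104 CPM (UMIs of the gene scaled to the same total of summed gene UMIs in each group of cells) in DMSO and 81.1 CPM in Selinexor, 3.06 and 5.15 times lower than in the other cells.

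Depth was alike in the members of both libraries. Their median was 14225 UMIs in DMSO (4689 to 30498) and 14270.5 in Selinexor (9315 to 24703), against 9001 and 9837 in the other cells. Summed over the members, the libraries held 1054483 and 333040 UMIs. The median mitochondrial share was 3.02% and 3.64%. Barcodes shared by both libraries numbered 0, and the library's own multiplexing tag was the most abundant tag in 70 of 70 and 22 of 22 members.

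The threshold cut through a continuous range. The member nearest to it held 0.520% in DMSO and 0.555% in Selinexor, and the nearest cells outside held 0.499% and 0.493%. The 10-UMI limit decided the membership of 0 cells. As a description of what the rule used, the 4-gene share per cell had a median of 1.09% in DMSO (0.520 to 2.50) and 0.839% in Selinexor (0.555 to 1.52).

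The 4 genes differed in how evenly they were spread over the members. Elane (chr10:79886247-79888215, plus strand, mm10), Prtn3 (chr10:79874476-79883174, plus strand) and Ctsg (chr14:56099881-56102574, minus strand) had UMIs in 70 of 70 and 22 of 22 cells. Mpo (chr11:87793581-87804413, plus strand) had UMIs in 48 of 70 DMSO and 11 of 22 Selinexor cells, 68.6% and 50.0%. In cells with at least 10 UMIs of the macrophage markers C1qa, C1qb, C1qc, Mrc1 and Apoe, which should lack Mpo, 0 of 79 (median 12292 UMIs) and 0 of 96 (13031) had a Mpo UMI, which allows shares of up to 3.80% and 3.13%. Background from free RNA was thus not detectable for Mpo, while Prtn3 had a UMI in 5.06% and 9.38% of those cells.

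Mpo held 0, 2.30 and 30.4 UMIs per 10000 gene UMIs at the lowest, median and highest DMSO cell, and 0, 0.315 and 23.8 in Selinexor. Prtn3 held 24.9, 51.7 and 108 in DMSO and 19.0, 40.2 and 78.7 in Selinexor, with 20 of 22 Selinexor cells under the DMSO median. Elane had medians of 29.6 and 31.1, and Ctsg of 13.2 and 14.1. The ranges overlapped for each gene. Because the rule chose cells by the sum of these genes, each gene was also read in cells chosen by the other 3. There Ctsg was lower in Selinexor by 0.52 on the log2(CPM + 1) scale (log2 difference -0.52, -0.66 to -0.38) and Prtn3 was at -0.38 (-0.50 to -0.26). Mpo was at -0.24 (-0.50 to 0.02) and Elane at -0.06 (-0.17 to 0.05), both with intervals that include 0. All cells chosen this way were also members, 65 and 22 for Ctsg and 37 and 8 for Prtn3. The values thus describe cells inside the rule and test nothing. With the same mix of 4-gene share in both libraries, the median difference of the 4 genes was 0.16, against -0.33 without it.

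**Figure D1:**
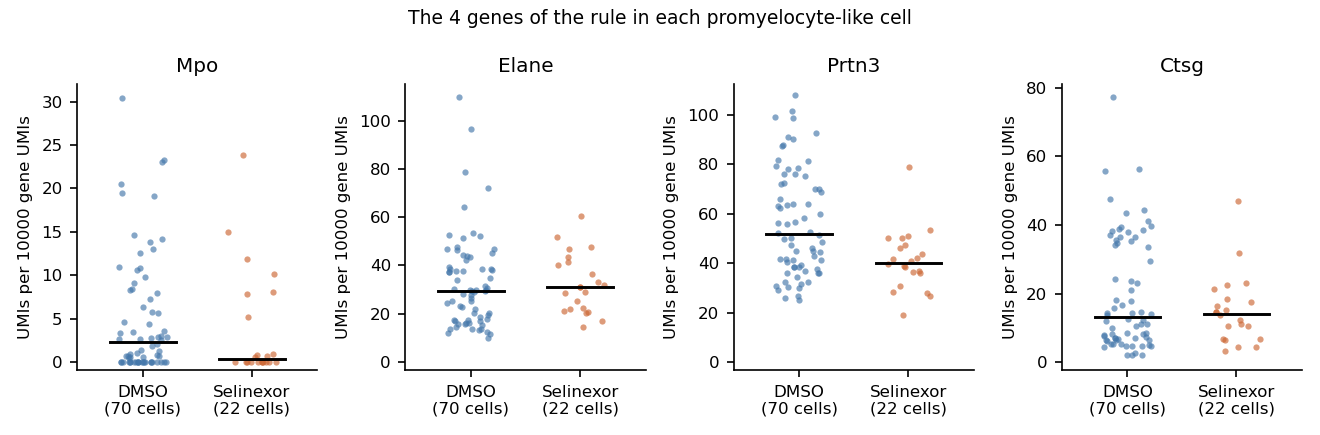
UMIs of Mpo, Elane, Prtn3 and Ctsg per 10000 gene UMIs of the cell (vertical axes) in the 70 DMSO and 22 Selinexor members; each point is a cell and the line is the median. Mpo is at 0 in 22 DMSO and 11 Selinexor cells, and the cells of both libraries overlap for each gene.

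Against the other cells with at least 2000 UMIs, 210 of 5265 genes tested (3.99%) were at least 2-fold higher in the members of both libraries and 712 (13.5%) at least 2-fold lower. A gene was tested here if it reached 20 CPM in members or other cells of each library, and log2 differences are of log2(CPM + 1). A gene below 20 CPM in the other cells was thus tested only through its level in the members, and the reverse. The contrast with the other cells follows from how the members were chosen, so these values describe the cells and test nothing.

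Beside the rule genes, Ms4a3, Prss57, Nkg7 and Cst7 were higher in the members of both libraries. Ms4a3 (chr19:11629496-11640851, minus strand), a membrane protein of granulocyte-monocyte progenitors and their early progeny, was 16.4 times higher than in other cells in DMSO and 20.3 times in Selinexor. It had a UMI in 70 of 70 and 22 of 22 members. Prss57, a further serine protease of primary granules, was 19.9 and 34.3 times higher. Nkg7, a granule membrane protein, was 31.1 and 35.8 times higher, and Cst7, the protease inhibitor cystatin F, 8.18 and 13.2 times. Other genes high in members of both libraries were Myl10 (16.6 and 17.8 times), Plac8 (7.49 and 10.1), Gstm1 (6.75 and 7.56), Tmed3 (4.52 and 7.08), Mgst2 (4.44 and 6.14), Gng12 (4.50 and 4.10), Cmtm7 (3.79 and 4.43) and Lta4h, which encodes leukotriene A4 hydrolase (4.05 and 3.96). Not all genes of primary granules or lysosomes were high. Of 15 further such genes tested, 5 were at least 2-fold higher in both libraries and 4 at least 2-fold lower, among them Ctsc, the protease that activates elastase and its relatives, at 51.2 CPM in DMSO members against 532 CPM in the other cells. The medians of the 15 were -0.50 in DMSO and -0.43 in Selinexor. Of 14 specific granule genes tested, 2 were higher, Fcnb and the peptidoglycan-binding protein Pglyrp1 (2.03 and 2.62 times), and 2 lower, Ltf and Mmp8.

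Fate factors had no common direction against the other cells. Of 17 tested, 4 were at least 2-fold higher in both libraries and 4 at least 2-fold lower, with medians of 0.10 and 0.01. Gfi1, a repressor needed for granulocyte fate, was 22.8 and 18.5 times higher than in other cells, and Myb 15.5 and 11.3 times. Cebpe, the C/EBP factor of the promyelocyte to myelocyte transition, was 4.22 and 4.31 times higher, and Cebpa 2.86 and 2.53 times. The 4 lower ones were Irf8, Klf4, Zeb2 and Id2. Irf8 and Klf4, factors of monocyte development, each had 4 UMIs over all DMSO members and 1 over all Selinexor members, and in DMSO Irf8 was 11.2 times lower by CPM than in other cells. Id2 was 4.87 and 30.4 times lower.

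Progenitor genes were partly present. Of 17 stem and progenitor genes, only 4 reached 20 CPM and were tested. Among these 4, 3 were at least 2-fold higher in both libraries: Myb, Egfl7 (12.4 and 9.71 times) and Kit, the receptor for stem cell factor (9.10 and 4.29 times). Myb and Kit passed the filter only through the members. Kit stood at 34.1 and 39.0 CPM there, against 3.75 and 9.11 CPM in other cells. The filter thus favoured such genes, and the count is a description. Kit had a UMI in 22 of 70 and 7 of 22 members, against 7.59% and 2.08% of the macrophage-marker cells and 3.02% and 7.40% of all other cells. With each cell thinned to 2000 UMIs, Kit was found in 4 of 70 DMSO and 0 of 22 Selinexor members. The 0 of 22 has an interval of 0 to 15.4%. Of the thinned other cells, 0.957% and 2.67% held Kit. Cd34 had 2 UMIs in 1 DMSO cell and 0 in Selinexor, and Flt3 had 0 in both.

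Late neutrophil genes were mostly low, with 10 of 19 at least 2-fold lower in both libraries and 1 higher, Trem3 (3.67 and 4.50 times). Retnlg had 0 UMIs in the members, which against a floor of 3 counts per library makes it at least 8.85-fold lower than in other cells in DMSO and at least 4.54-fold lower in Selinexor. Mmp8, neutrophil collagenase, was 24.1 and 40.6 times lower. Il1b had 3 and 1 UMIs, Clec4d 10 and 1, and Fpr2 7 and 0. S100a8 and S100a9, which form the abundant cytosolic protein calprotectin, were not among the low genes. S100a8 stood at 70966 CPM in DMSO members and 77087 CPM in Selinexor members, above the 58579 and 37172 CPM of the other cells. S100a9 stood at 75988 and 85689 CPM, against 56975 and 38006 CPM.

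Markers of macrophages, dendritic cells and other lineages were mostly low. Of the macrophage markers, C1qa and C1qc had 0 UMIs in both libraries, and the 5 markers summed to 6 UMIs over all DMSO members and 3 over all Selinexor members. Of 15 monocyte genes tested, 12 were at least 2-fold lower in both libraries and 2 at least 2-fold higher, Ly6c2 (2.43 and 3.43 times) and Clec12a, a lectin-like receptor of myeloid cells, with 392 and 88 UMIs. Of 9 macrophage genes, 7 were lower and Vcam1 was higher (30.9 and 23.2 times), and 6 of 6 dendritic cell genes were lower. The 1 lymphocyte gene tested was Nkg7, which is also on the primary granule list. Markers of red cells were at 0, T cell markers had 1 UMI in all, and eosinophil markers 6 UMIs in DMSO and 0 in Selinexor. B cell markers were at 0 except Cd79b, with 17 and 3 UMIs. Basophil markers summed to 25 UMIs in 19 DMSO cells and 2 UMIs in 1 Selinexor cell, with Prss34 and Cpa3 at 0 in both. The monocyte markers Ly6c2, Ccr2, Csf1r, F13a1 and Fn1 together held 15.7 UMIs per 10000 in DMSO members and 38.8 in Selinexor members, above the 11.4 and 23.5 of the other cells. All 5 had UMIs, and Ly6c2 made up 1624 of the 1656 UMIs in DMSO and 1280 of the 1293 in Selinexor. The myelocyte markers Camp, Ltf, Ngp and Lcn2 held 61.6 and 54.1 per 10000, against 88.9 and 85.3 in the other cells, with a UMI in 69 of 70 and 22 of 22 members. The label rests on the 4 genes of the rule, and the members also carry transcripts of the myelocyte markers and of Ly6c2; their part in the results was not tested.

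Along the range of the 4-gene share, the genes of primary and specific granules parted. In DMSO, Ms4a3 stood at 33.3 CPM in the 992 cells with 0 UMIs of the 4 genes, 897 CPM in the 27 cells at 0.25 to 0.5%, 1428 CPM in the 29 members under 1% and 1855 CPM in the 41 members at 1% and above. Prss57 went from 1.76 to 109, 159 and 214 CPM over the same ranges, and Gfi1 from 1.76 to 15.2, 35.5 and 74.3 CPM. Camp and Ngp, genes of specific granules, were highest just below the rule. Camp was at 801 CPM in cells with 0 UMIs, 3637 CPM at 0.25 to 0.5%, 1907 CPM at 0.5 to 1% and 704 CPM at 1% and above. Ngp went from 3319 to 10180, 4190 and 2499 CPM. Ltf was instead highest in cells with 0 UMIs of the 4 genes, at 779 CPM, and stood at 567 CPM at 0.25 to 0.5%, 35.5 CPM at 0.5 to 1% and 20.6 CPM at 1% and above. Lcn2 was highest at 0.05 to 0.25%, with 4174 CPM against 4113, 2674 and 1167 CPM in the ranges that follow. Selinexor had 13 cells at 0.25 to 0.5%, 15 at 0.5 to 1% and 7 at 1% and above. Over these ranges Camp stood at 2396, 739 and 18.01 CPM and Ngp at 9097, 4756 and 1819 CPM, both highest just below the rule as in DMSO. Ltf stood at 85.2, 13.5 and 18.01 CPM there, after 610 CPM in the cells above 0 and up to 0.05%, and Lcn2 at 2379, 1225 and 909.7 CPM, after 3141 CPM at 0.05 to 0.25%.

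**Figure D2:**
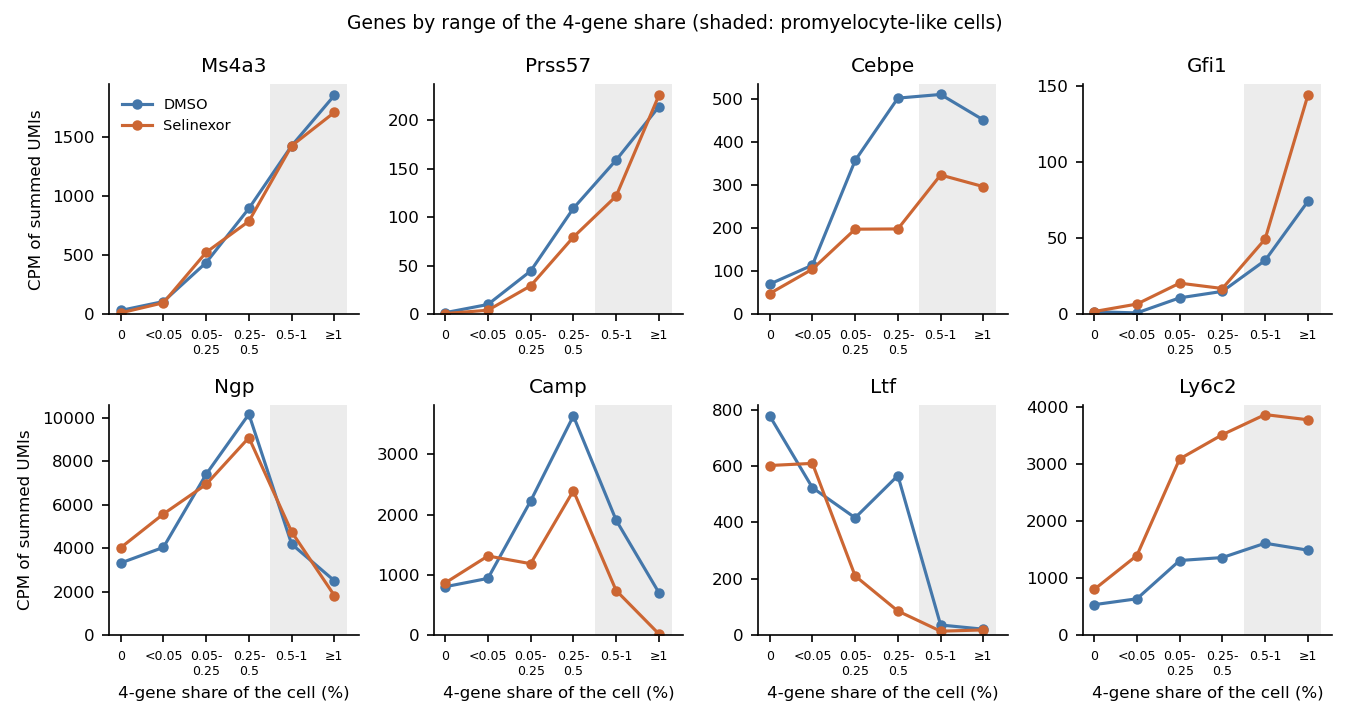
CPM of summed UMIs (vertical axes) of 8 genes over 6 ranges of the 4-gene share (horizontal axes, percent of the cell's gene UMIs) in DMSO and Selinexor; the shaded ranges are the members. Ms4a3, Prss57 and Gfi1 are highest at 1% and above, Camp and Ngp peak at 0.25 to 0.5% in both libraries, and Ly6c2 is higher in Selinexor in each range.

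Within the DMSO members, cells with and without a Mpo UMI differed along the same axis. The 48 cells with Mpo held 44.6 CPM of Kit and 73.0 CPM of Gfi1, and the 22 without it 9.53 and 25.4 CPM. Camp was at 894 CPM with Mpo and 1871 CPM without, and Ngp at 2663 and 4382 CPM. The median 4-gene share was 1.26% with Mpo and 0.706% without, so the split also follows the rule. In Selinexor, with 11 cells on each side, Kit was at 50.2 and 26.0 CPM and Gfi1 at 89.3 and 71.5 CPM. Camp went the other way there, at 787 CPM with Mpo and 163 CPM without, and 107 of the 166 Camp UMIs of the Selinexor members lay in 1 cell.

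The comparison of Selinexor with DMSO asks how their transcripts differ when the exportin 1 inhibitor is present during differentiation. Of 3036 genes with at least 50 UMIs over the members of both libraries, 173 (5.7%) were at least 1.5-fold higher in Selinexor and 399 (13.1%) at least 1.5-fold lower on the log2(CPM + 1) scale. The median over all 3036 was -0.13. For the same genes in the other cells, 99 (3.26%) were higher and 107 (3.52%) lower, with a median of 0.01. The other cells hold 12791366 and 11640418 UMIs in sum, far more than the members, so the members' values carry more counting error. DMSO members hold 1054483 UMIs and Selinexor members 333040, so a floor on the sum of both admits genes high in DMSO more readily. The part of either in these counts and in the median was not tested. Counts of genes in a list are read against 5.7% and 13.1%, which share this floor.

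Exportin 1 itself was higher. Xpo1 (chr11:23256041-23298249, plus strand) had 57 UMIs in DMSO and 32 in Selinexor members, 54.1 and 96.1 CPM, a log2 difference of 0.82 (0.16 to 1.48). It had a UMI in 33 of 70 and 18 of 22 members. In the other cells the difference was 1.54 (1.44 to 1.67). Of 11 measured genes of exportins, importins and the Ran cycle, Xpo1 was higher and Ran, the GTPase that drives nuclear transport, lower (-0.69, -0.92 to -0.46). The median of the 11 was -0.03, and in the other cells 0.36.

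Ly6c2 (chr15:75108158-75111970, minus strand), a surface antigen of monocytes and of early granulocytes, was higher in nearly every Selinexor member than in most DMSO members. Per 10000 gene UMIs it held 2.03, 14.0 and 36.5 UMIs at the lowest, median and highest DMSO cell and 14.2, 37.3 and 64.4 in Selinexor. The ranges overlapped, yet 22 of 22 Selinexor cells were above the DMSO median and 0 of 70 DMSO cells above the Selinexor median. Summed UMIs were 1624 and 1280, or 1540 and 3843 CPM, 2.50-fold higher in Selinexor (log2 difference 1.32, 1.21 to 1.43). In other cells the difference was 0.82 (0.78 to 0.86). That value pools all other cells, and those nearer the rule had larger rises. Ly6c2 stood at 1361 CPM in DMSO and 3521 CPM in Selinexor at a 4-gene share of 0.25 to 0.5%. At 0.05 to 0.25% it stood at 1309 and 3094 CPM. The gene has a close paralog in Ly6c1, so reads shared by both may have been left out or assigned to one of them. Of 5 measured monocyte genes, Ly6c2 and S100a4 were higher and 0 lower, while Csf1r, the receptor that marks monocytes, had 18 and 7 UMIs.

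The 12 genes named for a high difference were Ly6c2, Thbs1, Vcam1, Ccl6, Glipr1, Cytip, Hmgn1, Slc16a6, Cstb, Svip, Nkg7 and Cst7. Thbs1 (chr2:118111876-118127133, plus strand), the matrix protein thrombospondin 1, had 222 and 242 UMIs, 3.45-fold higher in Selinexor (log2 difference 1.78, 1.52 to 2.06), with a UMI in 57 of 70 and 22 of 22 cells. Its median per 10000 was 1.30 in DMSO and 6.04 in Selinexor, and 19 of 22 Selinexor cells were above the DMSO median. Vcam1, a ligand of the integrin VLA-4, was at 53.1 and 177 CPM (1.72, 1.19 to 2.29) and had a UMI in 20 of 70 and 15 of 22 cells. Its difference in other cells was 1.67. The chemokine Ccl6 was at 125 and 402 CPM (1.68, 1.33 to 2.04). Glipr1 had a difference of 1.69, and Cytip, a regulator of integrin adhesion, 1.29. Hmgn1, a nucleosome-binding protein, differed by 1.39 in members and by 2.01 in other cells, and Slc16a6 by 1.13 and 2.03. Cstb, the protease inhibitor cystatin B, was 2.15-fold higher in members and differed by only 0.10 on the log2 scale in other cells. Svip, a small protein that binds the p97 ATPase, was 2.04-fold higher.

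**Figure D3:**
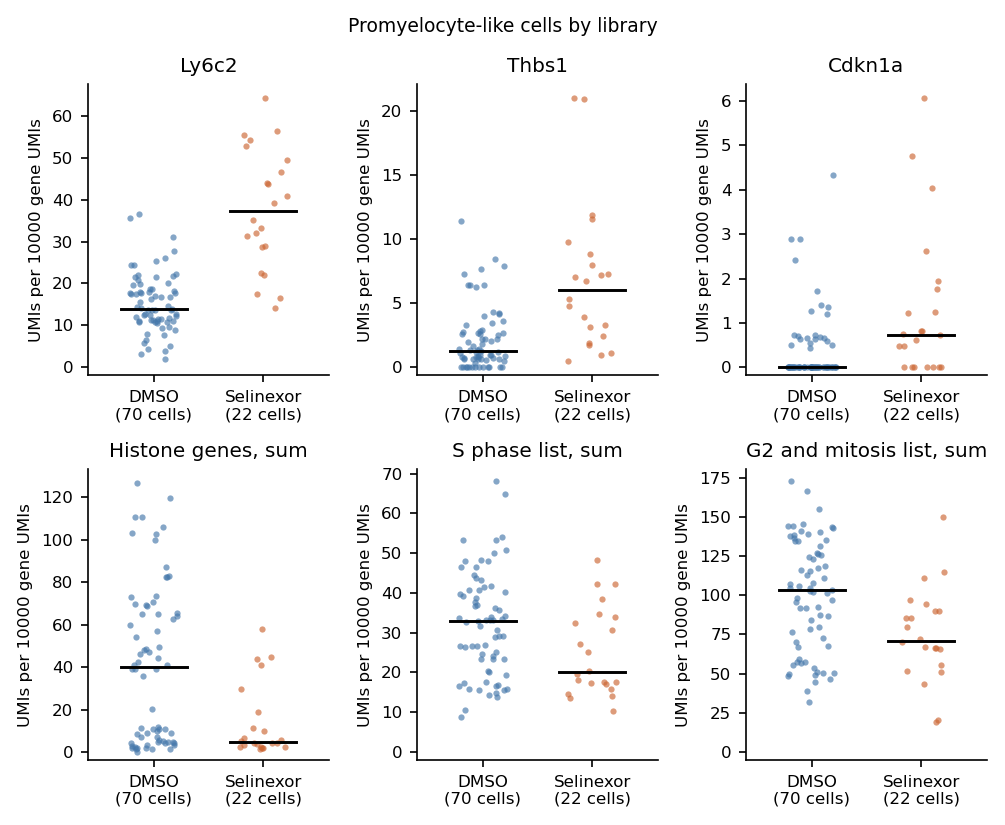
UMIs per 10000 gene UMIs (vertical axes) of Ly6c2, Thbs1, Cdkn1a and of the summed histone, S phase and G2 and mitosis lists in each DMSO (70) and Selinexor (22) member; lines are medians. All 22 Selinexor cells lie above the DMSO median of Ly6c2 (14.0), and 18 of 22 lie under the DMSO median of the histone sum (40.2).

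Histone genes were lower in Selinexor members. Replication-dependent histone genes are transcribed in S phase to package new DNA, and because most of their transcripts carry no poly(A) tail, a poly(A)-based assay captures only part of them. All 14 measured ones were at least 1.5-fold lower, against 13.1% of all measured genes, with a median difference of -1.63. They were grouped after 6 of the 12 lowest genes had been seen to be histones, so the count is a description. The floor of 50 UMIs over both libraries also favours genes high in DMSO, whose members hold more UMIs. With a floor of 20 UMIs, 25 of 29 histone genes were lower and 0 higher, against 979 lower of all 5610 genes. With no floor, 44 of 57 histone genes were lower and 3 higher, against 3460 lower and 2302 higher of all 11620 genes. In the other cells 5 of the 14 were lower and their median was -0.49. That median pools other cells of all 4-gene shares. Nearest the rule, at 0.25 to 0.5%, histone transcripts of other cells also fell, from 0.5165% with DMSO to 0.2527% with Selinexor. At 0.05 to 0.25% they went from 0.4422% to 0.358%. The lower histone level was thus not limited to the members. Near-identical copies exist for many histone genes, and how counts were divided among them is uncertain, so the sum is the safer measure. All histone rows together made up 0.412% of the members' UMIs in DMSO and 0.150% in Selinexor.

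Cell by cell, the histone sum per 10000 was 0, 40.2 and 127 at the lowest, median and highest DMSO member, and 1.61, 4.89 and 58.2 in Selinexor. DMSO members fell into a low and a high range with few cells near 20, a value chosen after seeing the plot of histone sums. At or above 20 stood 40 of 70 DMSO members, 57.1% (44.7 to 68.9), and 5 of 22 Selinexor members, 22.7% (7.82 to 45.4). Among other cells, whatever their 4-gene share, 17.95% reached 20 in DMSO and 15.7% in Selinexor. Single histone genes with large differences were Hist1h2ae (108 and 6 UMIs, -2.44), Hist1h2ab (127 and 8, -2.28), Hist1h1d (158 and 12, -2.03), Hist2h2ac (209 and 17, -1.94), Hist1h3e (116 and 10, -1.84) and Hist1h1c (165 and 16, -1.68).

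Other cell cycle genes were lower in smaller steps. Of 27 measured S phase genes, 11 were lower and 1 higher, with a median of -0.43, while the same genes had a median of 0.29 in other cells. Rrm2, a subunit of ribonucleotide reductase, had 201 and 27 UMIs (-1.22, -1.87 to -0.65). Tyms, thymidylate synthase, had 130 and 20 (-1.03, -1.80 to -0.35), and E2f8 and Uhrf1 differed by -1.21 and -1.20. Of 39 measured G2 and mitosis genes, 14 were lower and 0 higher, with a median of -0.40 and of -0.14 in other cells. Cdk1, the kinase of mitotic entry, had 241 and 28 UMIs (-1.43, -2.06 to -0.87). Top2a, a topoisomerase of dividing cells, had 587 and 109 (-0.76, -1.07 to -0.47), and Mki67, the Ki-67 antigen, 341 and 66 (-0.70, -1.11 to -0.32). Tmpo, a protein of the inner nuclear membrane, was at -1.67, Ckap5 at -1.38 and Nusap1 at -1.20. The values for other cells pool all 4-gene shares. In the other cells nearest the rule (0.25 to 0.5%), Mki67 stood at 455 CPM in DMSO and 193 CPM in Selinexor. Top2a stood at 570 and 273 CPM there. The G2 and mitosis list went from 1.004% of the UMIs of these cells to 0.693%, while the S phase list did not fall (0.316% and 0.330%).

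At full depth, most members of both libraries nonetheless held transcripts of dividing cells. A UMI of Mki67 or Top2a was found in 67 of 70 DMSO and 20 of 22 Selinexor members, against 54.4% and 65.6% of the macrophage-marker cells. With each cell thinned to 2000 UMIs, 49 of 70 (70.0%, 57.9 to 80.4) and 11 of 22 (50.0%, 28.2 to 71.8) held one. Of the other cells 31.3% and 33.8% did, and the Selinexor interval includes the second value. Thinned Selinexor members held Top2a in 4 of 22 (18.2%) and Mki67 in 7 of 22 (31.8%), against 20.6% and 25.4% of other cells. The members' S phase sums overlapped, with medians of 33.0 and 20.1 per 10000, and the G2 and mitosis sums had medians of 103 and 71.1.

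Cdkn1a (chr17:29090976-29100727, plus strand), which encodes the cell cycle inhibitor p21, was higher in Selinexor members. It had 42 UMIs in DMSO and 46 in Selinexor, 3.47-fold higher by CPM (log2 difference 1.77, 1.16 to 2.43), and was found in 22 of 70 and 15 of 22 cells. The per-cell median was 0 and 0.732 per 10000, with highest cells at 4.34 and 6.07. In the other cells the difference was -0.07 (-0.14 to 0.01), from a higher base, since DMSO members stood 5.60 times under them. That value covers all other cells, most of which held 0 UMIs of the 4 rule genes. In the other cells nearest the rule, at 0.25 to 0.5%, Cdkn1a stood at 39.4 CPM in DMSO (27 cells) and 90.9 CPM in Selinexor (13 cells). No interval was computed for these few cells. At 0.05 to 0.25% Cdkn1a stood at 94.7 CPM in DMSO and 94.0 CPM in Selinexor, without a rise. Of 5 measured p53 target genes 3 were higher and 1 lower, with a median of 0.64 against 0.02 in other cells. Bax, the pore-forming death protein, had 287 and 141 UMIs (0.64, 0.34 to 0.93), and 17 of 22 Selinexor cells were above its DMSO median. Mdm2, the ligase that degrades p53, had 33 and 18 (0.77, -0.13 to 1.66), an interval that includes 0. Xpc, a DNA repair factor, had 84 and 17 (-0.63, -1.49 to 0.12).

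**Figure D4:**
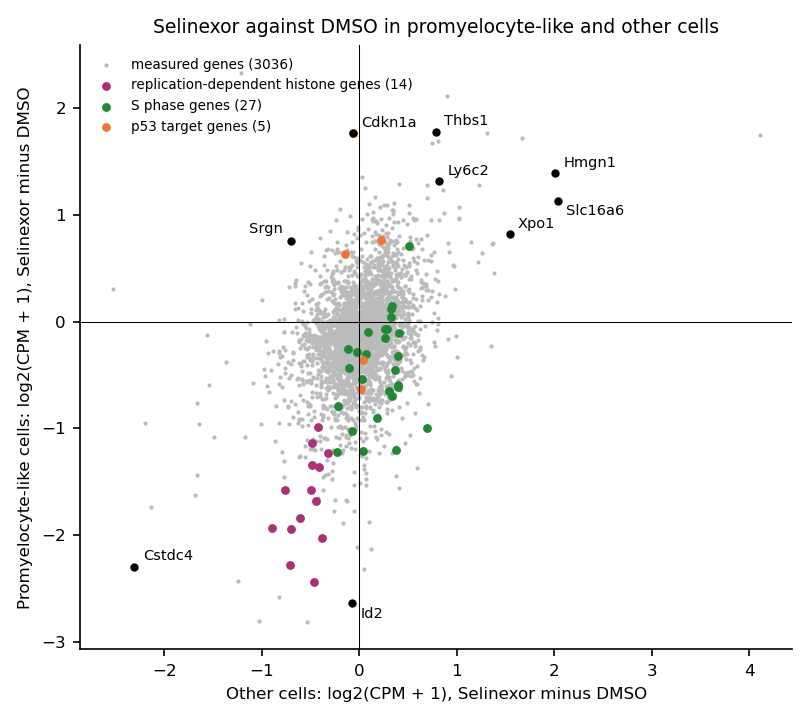
Log2(CPM + 1) in Selinexor minus DMSO in the members (vertical axis) against the same in the other cells (horizontal axis), 1 point for each of 3036 measured genes, with 3 lists in colour and some genes named in black. The 14 histone genes lie between -0.99 and -2.44 in members, and Cdkn1a (1.77, -0.07) and Id2 (-2.64, -0.08) lie near 0 on the horizontal axis, which sums all other cells whatever their 4-gene share.

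Granule genes outside the rule had no common direction. Of 14 measured further primary granule and lysosomal genes, 4 were higher and 1 lower, with a median of 0.19 and 0.21 in other cells. Nkg7 was higher (1.16, 0.57 to 1.77), as were Cst7 (1.05, 0.55 to 1.56) and Ctsd, cathepsin D (0.64, 0.30 to 0.98). Srgn, the proteoglycan serglycin on which granule proteins are stored, had 944 and 504 UMIs and a difference of 0.76 (0.60 to 0.91), while in other cells it was -0.71 (-0.76 to -0.65). Ctsc was at -0.90 with an interval that includes 0 (-2.13 to 0.11). Ms4a3 and Prss57 differed by -0.15 and -0.29.

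Specific granule genes were split, with 2 of 12 measured genes higher, 3 lower and a median of -0.15. Fcnb, the lectin ficolin B, was at 233 and 453 CPM (0.96, 0.66 to 1.26), and Hp, haptoglobin, at 787 and 1411 CPM (0.84, 0.68 to 1.01). Hp was uneven, with 103 of its 470 Selinexor UMIs in 1 cell. Its per-cell medians were 7.27 per 10000 in DMSO and 9.19 in Selinexor, and 13 of 22 Selinexor cells were above the DMSO median. Camp was lower (-1.25, -1.49 to -1.02), and Lcn2, lipocalin 2, was too (-0.66, -0.82 to -0.50). Itgb2l had 62 and 6 UMIs (-1.65, -3.21 to -0.50). Camp was uneven between cells, at 0 in 16 DMSO and 9 Selinexor cells and up to 143 and 85.3 per 10000.

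Among fate factors, 0 of 13 were higher and 3 lower. Id2 (chr12:25093799-25097140, minus strand), an inhibitor of E proteins, had 104 UMIs in 40 DMSO cells and 5 UMIs in 3 Selinexor cells, a log2 difference of -2.64 (-4.37 to -1.45), against -0.08 in other cells. It was the lowest of the 12 genes named for a low difference. Cebpe had 502 and 105 UMIs (-0.59, -0.91 to -0.29), with 18 of 22 Selinexor cells under the DMSO median, and in other cells it was at -0.62. Runx3 had 47 and 6 UMIs (-1.26, -2.82 to -0.08). Gfi1 (0.46, -0.25 to 1.14), Myb (0.21, -0.44 to 0.83) and Cebpa (0.29, -0.55 to 1.09) had intervals that include 0.

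Other low genes were uneven between cells. The stefin genes Stfa2l1 (-2.43), Cstdc4 (-2.30) and Cstdc5 (-1.74) encode near-identical cysteine protease inhibitors, so their separate counts are uncertain. Cstdc4 had a UMI in 57 of 70 and 13 of 22 members, Cstdc5 in 45 and 11, and Stfa2l1 in 37 and 5. In 1 Selinexor cell lay 303 of the 328 Cstdc5 UMIs and in 1 cell 99 of the 136 Cstdc4 UMIs. Cstdc4, Cstdc5 and Stfa2l1 were lower in the other cells too (-2.31, -2.14 and -1.25). Wfdc17 had 178 and 11 UMIs (-2.32) and was found in 30 of 70 and 9 of 22 members, with 83 of its DMSO UMIs in 1 cell. Spp1, osteopontin, had 68 and 7 UMIs (-1.57, -2.99 to -0.50).

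Metabolic lists were also lower in part. Of 16 measured glycolysis and hypoxia genes, 5 were lower and 0 higher, with a median of -0.40 and of -0.43 in other cells. Ldha, lactate dehydrogenase A, was at -0.73 and Tpi1 at -0.80 (-1.17 to -0.46), while Bnip3 was at -1.08 (-2.50 to 0.04). Of 8 genes of the ATF4 and amino acid response, 2 were lower: Asns, asparagine synthetase, with 72 and 9 UMIs (-1.31), and Mthfd2 with 78 and 10 (-1.27). Fdps, an enzyme of isoprenoid synthesis that was 4.66 and 4.04 times higher in members than in other cells, was at -0.89 (-1.16 to -0.65).

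Further lists had few genes past 1.5-fold. Of 9 IL-6 and GM-CSF receptor signalling genes, 2 were past 1.5-fold higher and 1 lower, with a median of 0.38. Stat3 was at 0.68 (-0.12 to 1.47) and Csf2ra, the GM-CSF receptor alpha chain, at -0.61 (-1.28 to 0.00), both with intervals that reach 0. Jak1 was at 0.59 (0.02 to 1.15), but at -0.24 with a 1% threshold and at -0.91 with cells thinned to 2000 UMIs, and in both settings 0 genes of the list were higher and 2 lower. Csf3r, the G-CSF receptor, had 29 and 12 UMIs. Of 6 ERK feedback and immediate early genes, 0 were higher and 0 lower, and Egr1 (27 and 4 UMIs) and Dusp6 (10 and 6) had too few UMIs to be measured. Ribosome biogenesis had 2 of 18 past 1.5-fold higher, Gnl3 (0.76) and Rrp1b (0.68), and Gar1 lower (-0.67), the last 2 with intervals that include 0. Protein folding in the endoplasmic reticulum had 1 of 20 higher, Sec61a1 (0.66), and 0 lower. Of 9 measured late neutrophil genes, Ccl6 was higher and Trem3 lower (-0.66), and the decoy receptor Il1r2 was at -0.60 (-1.27 to 0.02). Of 5 BCL2 family genes, Bcl2a1a (0.96), which has near-identical copies, and Bax were higher, and Bad was at -0.64 (-1.88 to 0.39). Of 9 genes linked to suppression, Wfdc17 was lower, and Stat3 and Lgals9 (0.78, -0.02 to 1.59) were past 1.5-fold with intervals that include 0.

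**Figure D5:**
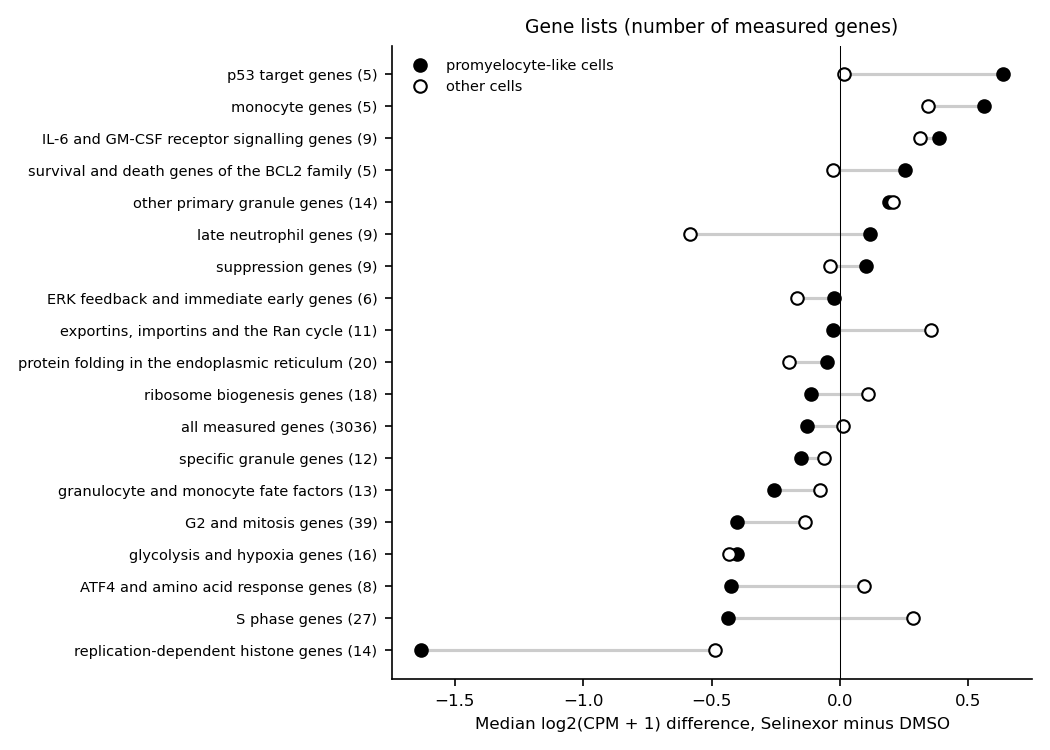
Median log2(CPM + 1) difference, Selinexor minus DMSO (horizontal axis), of gene lists with at least 4 measured genes in the members (filled) and in the other cells (open). The p53 targets have the highest median in members (0.64) and the histone genes the lowest (-1.63), against -0.13 for all measured genes.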

How the data were processed

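The authors deposited raw UMI counts per gene and cell barcode, made with Cell Ranger 6.1.2 against mm10, per the submitters' processing notes; no source used here names the annotation release. The matrices held 32285 gene rows and 12 multiplexing tags, and tags entered no gene total. Cells were selected by the rule given above, counts were summed over members and over other cells of each library, and CPM and log2(CPM + 1) differences were computed (pseudocount 1). Log2 differences understate those of low genes. Ratios have exact conditional binomial intervals, which cover counting error only. TMM (edgeR 4.0.16) and median-of-ratios (DESeq2 1.42.0) factors served as alternative scalings only, with no test. The scripts were tested on simulated data. No doublet caller was run; leaving out the members with the most UMIs was an alternative. The members and lists were chosen with earlier results of these data known. Named genes are the 4 rule genes, 16 genes of interest, the 12 highest and 12 lowest differences (100 UMIs, 20 CPM in 1 library, same sign with cells weighted equally), the 12 highest against other cells, and up to 4 per list; the highest and lowest exclude genes of mitochondria, ribosomal proteins and haemoglobin and genes without a proper name. S100a8, S100a9, Cd79b, Clec12a, Zeb2 and the histone group were added after their values were seen. Coordinates are from GENCODE M21 on GRCm38, matched by Ensembl identifier for 102 of 102 genes. Of all list symbols, 4 matched no single row. A further gene that the rule for named genes picks is not reported here.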

Additional observations from a re-analysis of the deposited data

Results flagged for a closer look

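Srgn had opposite differences between Selinexor and DMSO inside and outside the rule, 0.757 on the log2(CPM + 1) scale in promyelocyte-like cells and -0.706 in the other cells; the difference between these values was not tested, since each library is a single sample.

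Multiplexing tags, which entered no comparison, were less pure in promyelocyte-like cells. Tags other than the library's own made up 13.3% of their tag UMIs in DMSO and 19.0% in Selinexor, against 8.89% and 6.63% in the other cells of those libraries. The part of this in the results was not tested beyond leaving out the members whose own tag held under 80% of tag UMIs, which kept 42 DMSO and 14 Selinexor cells. Without them the histone median was -1.51 with 10 of 10 measured genes lower. The p53 target median was 0.62, over only 3 measured genes, 2 of them higher. Other medians moved in this setting. The rule genes went from -0.33 to -0.07. Signs changed for specific granule genes (-0.15 to 0.05) and suppression genes (0.10 to -0.22). They also changed for exportins, importins and the Ran cycle (-0.03 to 0.12) and for ERK feedback and immediate early genes (-0.02 to 0.27).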

How the results depend on the processing

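The share of promyelocyte-like cells followed the threshold: 6.79% in DMSO and 2.96% in Selinexor at 0.25%, 2.87% and 0.591% at 1%, and 0.350% and 0% at 2%, where 5 and 0 cells were left (0 of 1184 allows up to 0.253%) and no gene difference could be computed. Without Prtn3 in the rule the shares were 2.59% and 0.676%, and without Elane the DMSO share was 3.57%. The DMSO to Selinexor ratio stayed above 1 in each setting that gave one and was 4.85 at 1%. Higher and lower genes numbered 112 and 382 at 1%, 25 and 81 with cells thinned to 2000 UMIs, 576 and 979 with a floor of 20 UMIs, 22 and 67 with a floor of 200 and 2302 and 3460 with none, in which fewer or more genes were tested. Members without a UMI of Mki67 or Top2a were 3 DMSO and 2 Selinexor cells, with 13 higher and 27 lower genes. Among these few cells the difference changed sign for Glipr1 (-2.13), Stfa2l1 (1.66), Cstdc4 (1.69), Cstdc5 (7.24), Srgn (-1.14), Fcnb (-1.97), Hp (-0.0103) and Myl10 (-1.22). Thinning reversed Cebpe (0.0847), Slc16a6 (-0.20), Jak1 (-0.91), Asns (0.25), Slc16a3 (0.66) and Bcl2a1a (-0.32). The 1% threshold reversed Jak1 (-0.24), Slc16a3 (0.0239) and Xpc (0.13), and leaving out members under 80% own tag, chosen after seeing the data, reversed Xpc (0.0783). The causes of these reversals were not tested. Of 1094 recomputed values of named genes, 986 stayed within the counting interval. Of 287 list medians, for which no interval is given, 274 were labelled as the same. Of those 287, 31 changed sign, in 15 of 22 lists. Among the few members with neither Mki67 nor Top2a the median went from 0.56 to -1.82 for monocyte genes, from 0.19 to -0.94 for further primary granule genes and from 0.10 to -0.64 for suppression genes. Thinning took the IL-6 and GM-CSF list from 0.38 to -0.46 and the suppression list to -0.75. With 333040 UMIs over 22 cells, genes with few UMIs in Selinexor members are known only within wide intervals. No paired analysis was possible because each group has 1 library.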
